A study of Saccharomyces cerevisiae with 9 samples.

Results

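The genes described here build the clathrin coat and the actin patch that carry out endocytosis in budding yeast, Saccharomyces cerevisiae. They were taken by name: a row belonged to the set where its gene column held a listed symbol, and 40 of 40 listed genes were found, among 7012 entries in the CdSe/ZnS table and 7042 in the InP/ZnS table. No member was lost to low values, since all 40 were tested in each table. The cells were the haploid laboratory strain S288C in synthetic glucose medium at mid-log phase (optical density 0.3 to 0.6), kept at 30 °C and 220 rpm for 6 h. The agent was CdSe/ZnS, dosed at 10 µg/mL, in the first group, and InP/ZnS, dosed at 100 µg/mL, in the next, while the untreated group had none. Quantum dots are semiconductor nanocrystals, here with a core of cadmium selenide or indium phosphide inside a zinc sulfide shell. The doses differ 10-fold, and the sample labels give the InP/ZnS dose in mg/mL where the design text gives µg/mL, so the unit of that dose is uncertain.

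Messenger RNA was sequenced from 9 libraries, 3 per group, which the labels do not tie to separate cultures, and p-values then cover no more than how far these libraries differ, which may be technical. The tables hold 1 FPKM per gene and condition (fragments scaled to transcript length and to library size), pooled by the authors over the 3 libraries, so no value per library is given and the depth is unknown. A log2 ratio below is the log2 of treated over untreated FPKM. Its standard error (SE) is the one implied by the authors' own test score. A gene is called lower or higher where q in the authors' deposited table was under 0.05, and "fell" and "rose" are used of called genes alone. The labels list a single untreated group, so both tables are taken to share it, and its values differ between them: untreated values in the InP/ZnS table were 1.14 times those in the CdSe/ZnS table by the median over 6290 genes, and 1.08 to 1.22 times for the members. Levels are therefore compared within a table.

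In budding yeast an endocytic site begins with a coat of clathrin, adaptors and scaffold proteins on the plasma membrane. Later coat proteins link this coat to actin and recruit the activators of the Arp2/3 complex, a WASP-family protein and type I myosins. The Arp2/3 complex then builds a branched actin network, which bundling and capping proteins shape and cofilin takes apart. Amphiphysins help to pinch off the vesicle, and protein kinases and a lipid phosphatase help to strip the coat.

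Most of these genes had less RNA with CdSe/ZnS and most, 26 of 40, were not called with InP/ZnS. With CdSe/ZnS 31 of 40 members fell (77.5%), where 43.6% of all tested genes fell, and 1 member rose (2.5%), where 9.59% of all tested genes rose. The median log2 ratio of the members was -0.70, beside -0.35 over all 6321 tested genes. With InP/ZnS 12 of 40 members fell (30%), beside 17.2% of all tested genes, and 2 rose (5%), beside 23.9%. The median of the members was 0.0065 there, beside 0.067 over all 6367 tested genes, and it turned to -0.060 relative to that median and to -0.078 with the trend with gene length removed.

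Since the median gene was itself lower with CdSe/ZnS, the ratios were also taken relative to it and tested against the implied SE in a normal test adjusted over all genes. By that test 16 members were lower and 1 higher with CdSe/ZnS, where 13.6% of all tested genes were lower and 11.9% higher. In the same test for InP/ZnS 4 members were lower and 1 higher, where 8.32% of all tested genes were lower and 7.87% higher.

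**Figure D1:**
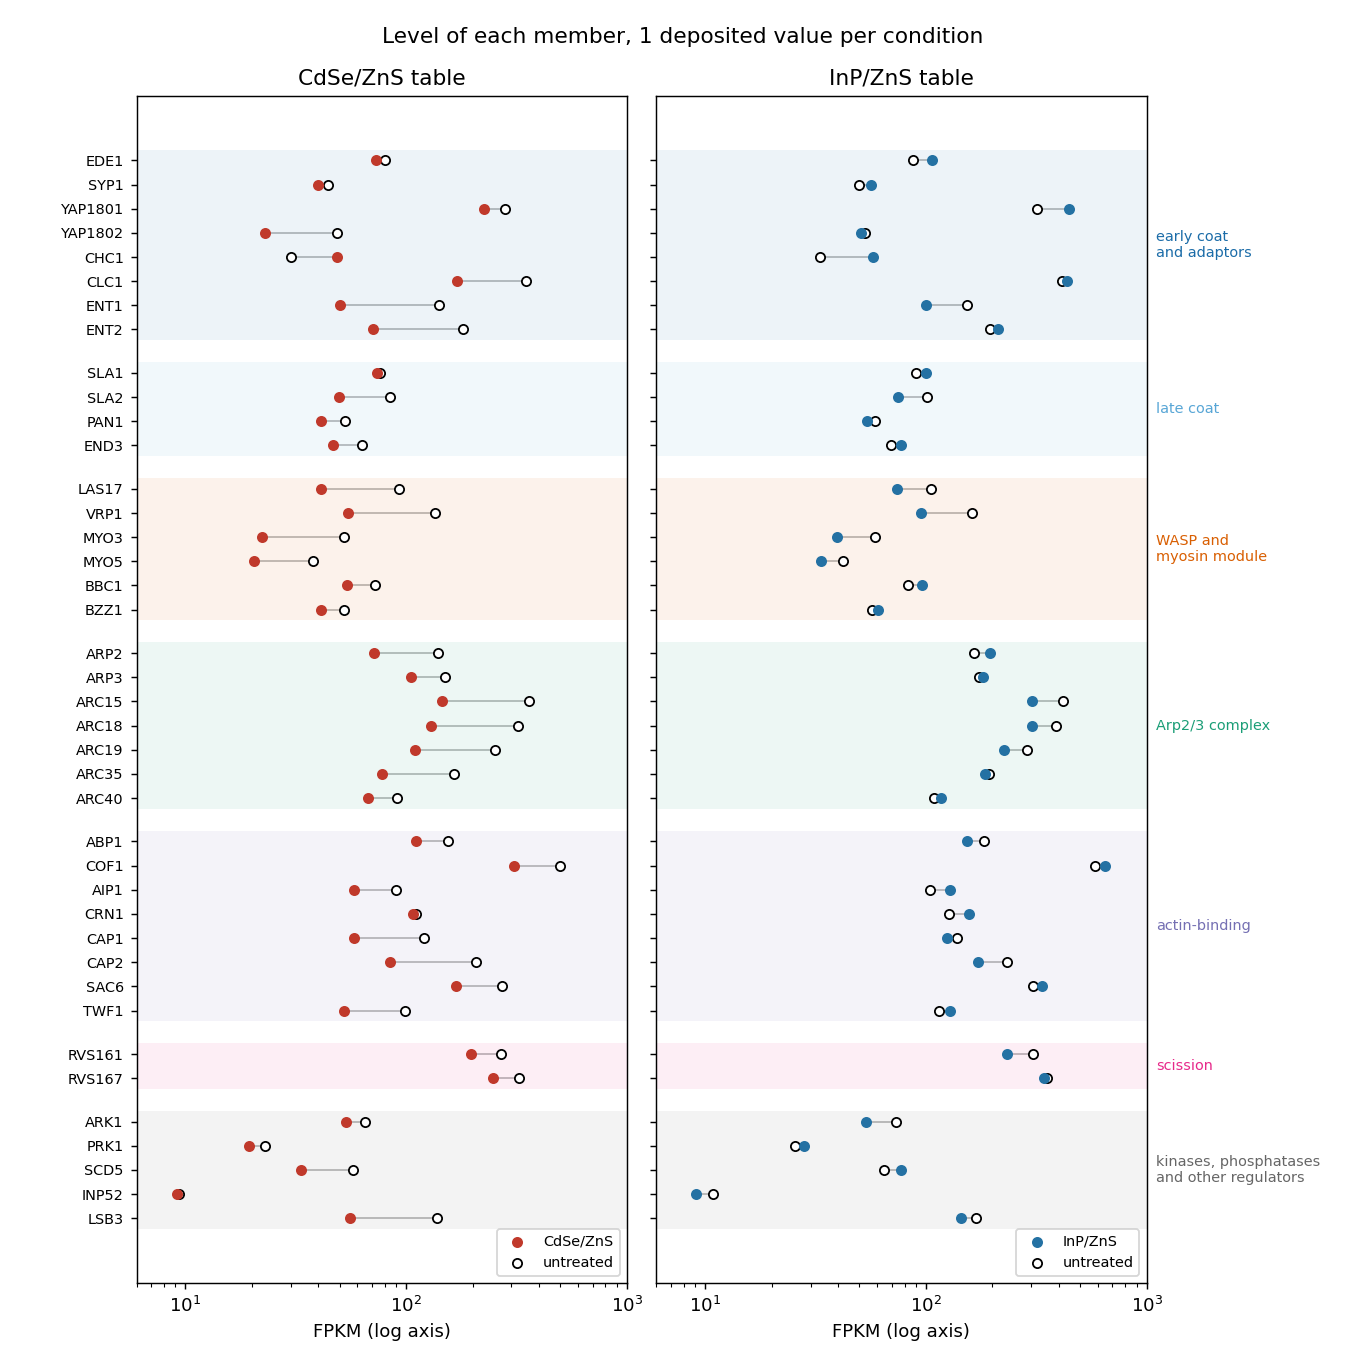
FPKM of the 40 members on a log axis, in 7 role groups, for the CdSe/ZnS table (left) and the InP/ZnS table (right); filled points are treated cells and open points untreated cells, each the authors' single value for a condition, with no error bar because no library has a value. The filled point lies left of the open point for 39 of 40 members in the left panel and for 20 of 40 in the right panel.

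The members spanned a wide range of levels. Cofilin, COF1, was the highest of them in every condition, at 308 FPKM with CdSe/ZnS against 498 untreated, and at 645 with InP/ZnS against 582 untreated. INP52, a lipid phosphatase gene, was the lowest in every condition, at 9.13 with CdSe/ZnS against 9.31 untreated, and at 9.10 with InP/ZnS against 10.9 untreated. The median member stood at 58.3 FPKM with CdSe/ZnS against 105 untreated, and at 121 with InP/ZnS against 121 untreated. The median over all tested genes was 37.5 with CdSe/ZnS against 48.1 untreated, and 55.8 with InP/ZnS against 53.7 untreated.

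The early coat had the widest range of log2 ratios of the 7 role groups with either quantum dot. Of its 8 members 4 fell, 1 rose and 3 were not called with CdSe/ZnS, and their log2 ratios ran from -1.50 to 0.70. With InP/ZnS 1 fell, 2 rose and 5 were not called, between -0.60 and 0.80. Over all tested genes 43.6% fell and 9.59% rose with CdSe/ZnS, and 17.2% fell and 23.9% rose with InP/ZnS. Clathrin itself was split. CHC1, the clathrin heavy chain on chromosome VII (102543 to 107504, minus strand), rose to 48.8 FPKM with CdSe/ZnS, against 30.0 untreated, a log2 ratio of 0.70 (SE 0.26). It rose to 57.5 FPKM with InP/ZnS, against 33.0 untreated, at 0.80 (SE 0.24). CHC1 was the only member called higher with CdSe/ZnS, and with a coding length of 4962 bases it is the longest. With the trend with length removed its log2 ratios were 0.56 (CdSe/ZnS) and 0.58 (InP/ZnS), and neither passed.

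CLC1, the clathrin light chain on the same chromosome (832456 to 833157), fell to 169 FPKM with CdSe/ZnS, against 347 untreated, at -1.04 (SE 0.22). With InP/ZnS it stood at 436 FPKM, against 413 untreated, at 0.08 (SE 0.23), and was not called. The light chain thus had 3.47 times the FPKM of the heavy chain with CdSe/ZnS, against 11.6 times untreated, and 7.58 times with InP/ZnS, against 12.5 times untreated. CLC1 is short, with 702 coding bases, and genes of up to 1000 bases had a median of -0.61 with CdSe/ZnS. With the trend with length removed its log2 ratio with CdSe/ZnS was -0.49, so neither chain passed after that step. The difference in response between the chains was not tested.

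The epsins ENT1 and ENT2 are adaptors that bind membrane lipids and ubiquitin, and they fell furthest of the members with CdSe/ZnS. ENT1 was at 49.9 FPKM with CdSe/ZnS against 141 untreated, at -1.50 (SE 0.20), and ENT2 at 70.6 against 181, at -1.36 (SE 0.23). With InP/ZnS ENT1 fell to 101 FPKM, against 153 untreated, at -0.60 (SE 0.22). ENT2 stood at 211 FPKM with InP/ZnS, against 196 untreated, at 0.11 (SE 0.24), and was not called. The difference between the paralogs with InP/ZnS was not tested, and ENT1 overlaps another entry, YDL162C, so its value is uncertain.

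The AP180-type adaptors YAP1801 and YAP1802, link clathrin to the membrane, and the difference between them was not tested. YAP1801 was the more abundant, at 225 FPKM with CdSe/ZnS against 281 untreated, at -0.32 (SE 0.23), and was not called. With InP/ZnS it rose to 445 FPKM, against 320 untreated, at 0.47 (SE 0.25). YAP1802 fell to 22.9 FPKM with CdSe/ZnS, against 48.5 untreated, at -1.08 (SE 0.24). With InP/ZnS it stood at 50.6, against 52.7 untreated, at -0.06 (SE 0.23). YAP1802 overlaps YGR242W and is uncertain. The scaffold EDE1, an Eps15-like protein, and SYP1, an F-BAR protein that arrives early, were not called in either table. EDE1 had log2 ratios of -0.12 (SE 0.24) with CdSe/ZnS and 0.29 (SE 0.25) with InP/ZnS, and SYP1 -0.15 (SE 0.24) and 0.18 (SE 0.23).

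The members include 5 pairs of paralogs, so reads could in principle have been shared between the genes of a pair. The coding sequences were 64% to 72.9% identical over the aligned bases, and the longest identical stretch was 32 bases, in MYO3 and MYO5, while the authors kept reads of 80 bases or more. The windows of 80 coding bases around the longest identical stretch of the epsin and the myosin pair are printed to show how such a read would differ, with capitals at the bases that differ between the genes of a pair. The sequences are from the RefSeq assembly R64, on the strand of the gene.
ENT1 (chrIV:167877-167956, plus strand): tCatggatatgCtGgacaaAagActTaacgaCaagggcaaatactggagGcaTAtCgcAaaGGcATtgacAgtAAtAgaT
ENT2 (chrXII:554741-554820, plus strand): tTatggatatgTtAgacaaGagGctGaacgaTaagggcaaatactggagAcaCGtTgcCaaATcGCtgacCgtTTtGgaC
MYO3 (chrXI:198840-198919, minus strand): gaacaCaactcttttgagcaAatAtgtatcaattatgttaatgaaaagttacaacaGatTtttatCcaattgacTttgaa
MYO5 (chrXIII:487835-487914, plus strand): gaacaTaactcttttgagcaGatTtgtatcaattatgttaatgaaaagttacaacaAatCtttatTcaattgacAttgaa
The epsin windows differ at 21 bases and the myosin windows at 7. The longest identical stretch was 17 bases for ENT1 and ENT2, 20 for YAP1801 and YAP1802, 14 for ARK1 and PRK1 and 11 for RVS161 and RVS167.

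Among the 4 late coat genes, 3 fell with CdSe/ZnS (75%) and 1 with InP/ZnS (25%), beside 43.6% and 17.2% of all tested genes. SLA2, which ties the coat to actin, fell to 49.8 FPKM with CdSe/ZnS, against 84.6 untreated, at -0.76 (SE 0.21). It fell to 75.03 FPKM with InP/ZnS, against 101 untreated, at -0.43 (SE 0.23). SLA1, an adaptor that binds cargo and the WASP protein Las17, was not called in either table, at -0.04 (SE 0.23) with CdSe/ZnS and 0.15 (SE 0.24) with InP/ZnS. Its partners PAN1, an activator of Arp2/3, and END3 fell with CdSe/ZnS by little, at -0.36 (SE 0.23) and -0.44 (SE 0.24). In InP/ZnS cells PAN1 stood at -0.12 (SE 0.24) and END3 at 0.15 (SE 0.22), not called. Relative to the median of all genes none of the 4 passed with either quantum dot. With the trend with gene length removed SLA2 passed with CdSe/ZnS, at -0.65, and none passed with InP/ZnS.

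The WASP and myosin module, which switches on actin assembly, had the largest share of lower genes of any role group with InP/ZnS. All 6 members fell with CdSe/ZnS and 4 fell with InP/ZnS, with medians of -1.03 and -0.42. Over all tested genes 43.6% fell with CdSe/ZnS and 17.2% with InP/ZnS. VRP1, the yeast WASP-interacting protein, fell to 54.6 FPKM with CdSe/ZnS, against 136 untreated, at -1.31 (SE 0.21). With InP/ZnS it fell to 95.4 FPKM, against 162 untreated, at -0.77 (SE 0.20), the lowest ratio of any member there. LAS17, the WASP homologue itself, fell to 41.1 FPKM with CdSe/ZnS, against 92.5 untreated, at -1.17 (SE 0.21), and to 74.3 FPKM with InP/ZnS, against 105 untreated, at -0.50 (SE 0.21).

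The type I myosins MYO3 and MYO5, motors that push on the membrane and activate Arp2/3, moved the same way. MYO3 fell to 22.2 FPKM with CdSe/ZnS, against 52.2 untreated, at -1.23 (SE 0.24), and to 39.6 FPKM with InP/ZnS, against 58.7 untreated, at -0.57 (SE 0.24). MYO5 fell to 20.4 FPKM with CdSe/ZnS, against 37.8 untreated, at -0.89 (SE 0.24), and to 33.4 FPKM with InP/ZnS, against 42.1 untreated, at -0.33 (SE 0.23). The remaining members, BBC1, an inhibitor of Las17, and BZZ1, an F-BAR protein, moved less. They fell with CdSe/ZnS at -0.43 (SE 0.24) and -0.35 (SE 0.23), and were not called with InP/ZnS, at 0.21 (SE 0.24) and 0.09 (SE 0.23). BZZ1 lay at the median of all genes with CdSe/ZnS.

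These genes are long, from 1902 to 3819 coding bases, and long genes on the whole fell less with CdSe/ZnS. With the trend with length removed, the module's median came to -0.92 (CdSe/ZnS) and -0.54 (InP/ZnS), where that of all genes was 0.00 in each. LAS17, VRP1 and MYO3 passed the normal test in both tables after that step. MYO5 passed there with CdSe/ZnS and not with InP/ZnS, at -0.91 and -0.50. VRP1 overlaps OPI9 and BBC1 overlaps YJL020W-A, so both values are uncertain.

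**Figure D2:**
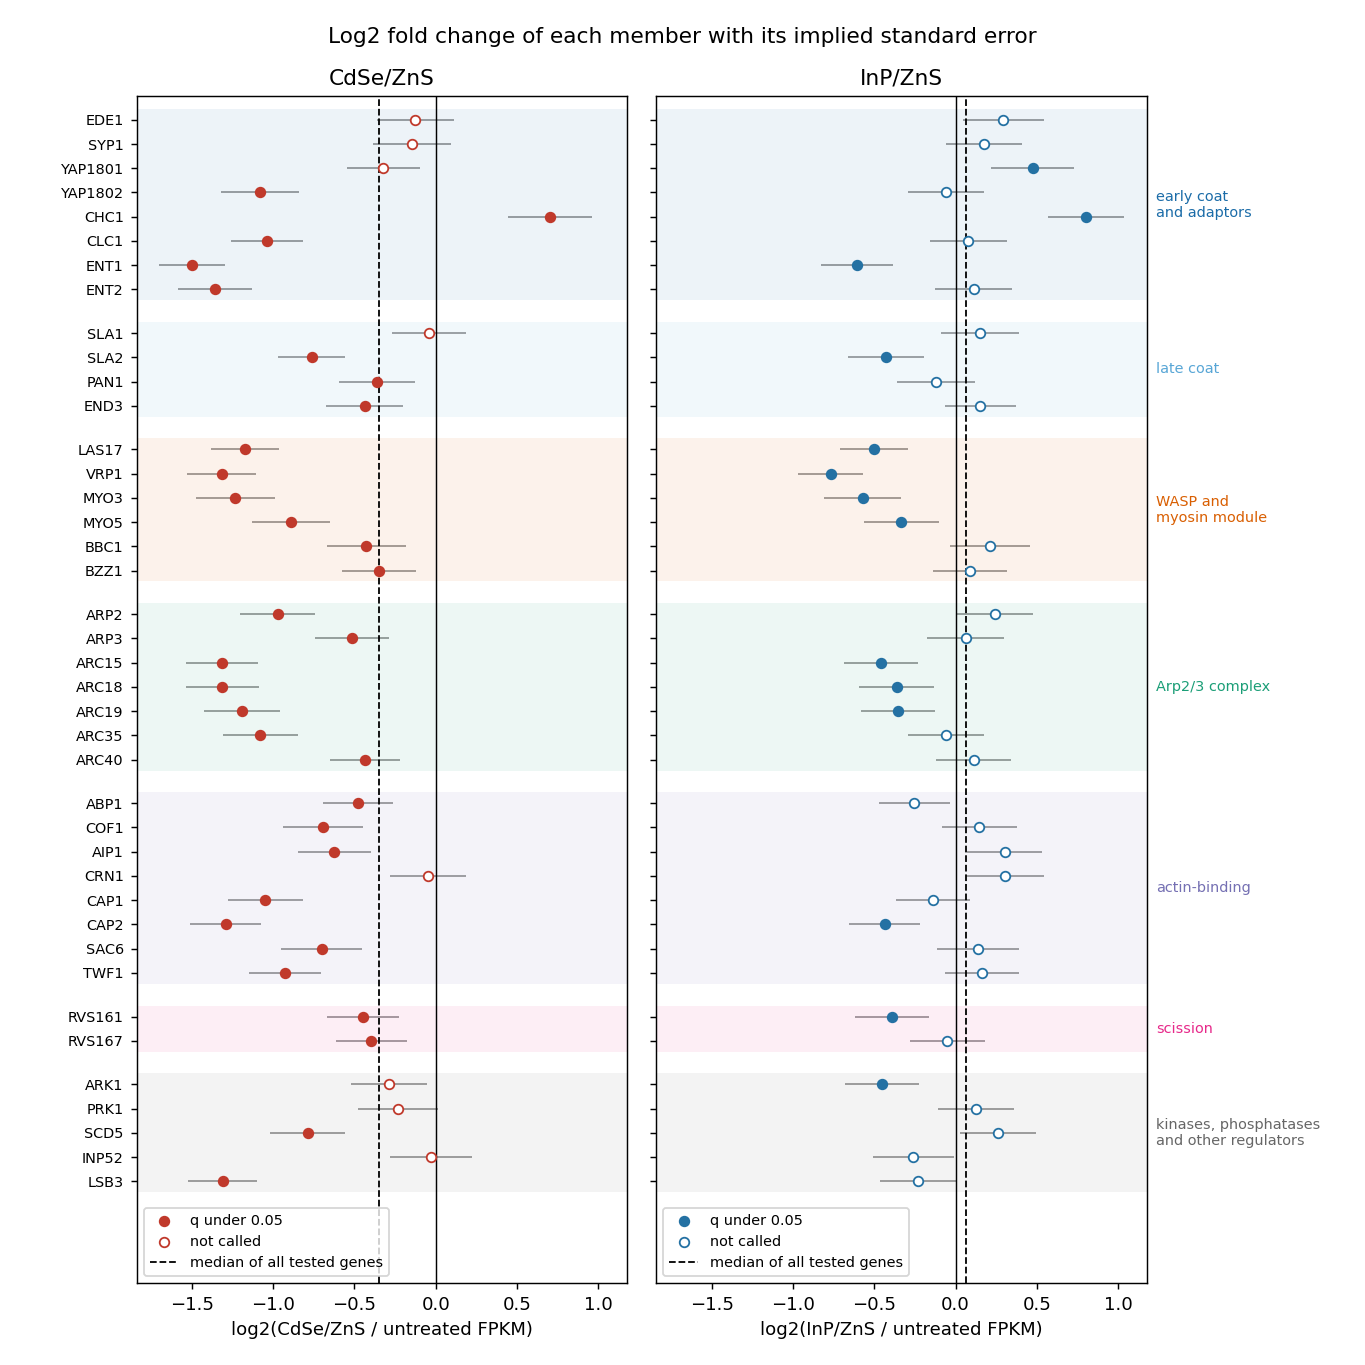
Log2 ratio of treated over untreated FPKM for each member, by role group, with CdSe/ZnS (left) and InP/ZnS (right); bars are 1 implied standard error, filled points have q under 0.05 in the authors' deposited table, and the dashed line is the median of all tested genes (-0.35 and 0.07). In the left panel 39 of 40 points lie below 0 and CHC1 lies at 0.70, and in the right panel VRP1 is lowest at -0.77 and CHC1 highest at 0.80.

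Every subunit of the Arp2/3 complex, the nucleator of branched actin, fell with CdSe/ZnS, and 3 of 7 fell with InP/ZnS. The medians of the subunits were -1.08 and -0.06. Over all tested genes 43.6% fell with CdSe/ZnS and 17.2% with InP/ZnS. The small subunits moved furthest before the trend with length was removed. ARC15, on chromosome IX (243998 to 244462, minus strand), fell to 145 FPKM with CdSe/ZnS, against 362 untreated, at -1.31 (SE 0.22). It fell to 304 FPKM with InP/ZnS, against 417 untreated, at -0.46 (SE 0.23). ARC18 had 130 FPKM with CdSe/ZnS against 323 untreated, at -1.31 (SE 0.22), and 304 with InP/ZnS against 390 untreated, at -0.36 (SE 0.23). ARC19 had 110 FPKM with CdSe/ZnS against 252 untreated, at -1.19 (SE 0.23), and 225 with InP/ZnS against 287.8 untreated, at -0.35 (SE 0.23).

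ARC35, at -1.08 (SE 0.23) with CdSe/ZnS, was at -0.06 (SE 0.23) with InP/ZnS and not called there. The actin-related proteins themselves fell with CdSe/ZnS at -0.97 (SE 0.23) for ARP2 and -0.52 (SE 0.23) for ARP3. With InP/ZnS ARP2 stood at 0.24 (SE 0.23) and ARP3 at 0.06 (SE 0.24), neither called. ARC40 fell least with CdSe/ZnS, to 67.3 FPKM, against 91.2 untreated, at -0.44 (SE 0.21), and stood at 118 FPKM with InP/ZnS, against 109 untreated, at 0.11 (SE 0.23).

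The subunits are parts of a single complex, yet their RNA levels per length differed, over a narrower range in treated cells, which was not tested. The highest subunit had 2.16 times the FPKM of the lowest with CdSe/ZnS, against 3.97 times untreated, and 2.58 times with InP/ZnS, against 3.83 times untreated. The subunits with the most RNA in untreated cells, ARC15, ARC18 and ARC19, are also the shortest, at 465, 537 and 516 coding bases. With the trend with length removed the median of the complex came to -0.59 (CdSe/ZnS) and -0.18 (InP/ZnS). After that step 4 and 0 of the 7 subunits were lower by the normal test, beside 12.2% and 9.13% of all genes. Those 4 were ARC35 at -0.65, ARC15 and ARC18 at -0.64, and ARP2 at -0.59. ARC19, at -0.52, did not pass, so the small subunits no longer stood lowest.

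The 8 actin-binding members fell in 7 cases with CdSe/ZnS (87.5%) and in 1 with InP/ZnS (12.5%). Of all tested genes 43.6% and 17.2% fell. Relative to the median of all genes 3 of the 8 were lower with CdSe/ZnS by the normal test, beside 13.6% of all tested genes. With the trend with length removed 1 of the 8 was lower there, or 12.5%, beside 12.2% of all genes. The lowest ratio of the 8 was that of CAP2, the beta subunit of the capping protein that closes filament ends. It was at 84.6 FPKM with CdSe/ZnS against 207 untreated, or -1.29 (SE 0.22). With InP/ZnS CAP2 fell to 173 FPKM, against 234 untreated, at -0.44 (SE 0.22). Its alpha partner CAP1 fell to 58.3 FPKM with CdSe/ZnS, against 121 untreated, at -1.05 (SE 0.23), and stood at 125 with InP/ZnS, against 138 untreated, at -0.14 (SE 0.23).

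TWF1, twinfilin, fell with CdSe/ZnS at -0.93 (SE 0.22), and SAC6, the fimbrin that bundles patch filaments, at -0.70 (SE 0.25). COF1 fell at -0.69 (SE 0.24), AIP1, its helper in disassembly, at -0.62 (SE 0.22), and ABP1, an actin-binding activator of Arp2/3, at -0.48 (SE 0.21). With InP/ZnS these 5 were not called, at 0.16 (SE 0.22), 0.14 (SE 0.25), 0.15 (SE 0.23), 0.30 (SE 0.23) and -0.25 (SE 0.22) for TWF1, SAC6, COF1, AIP1 and ABP1. CRN1, coronin, was the exception with CdSe/ZnS, at 107 FPKM against 111 untreated, or -0.05 (SE 0.23), and stood at 156 with InP/ZnS, against 127 untreated, at 0.30 (SE 0.24). It overlaps YLR428C. COF1 is short, with 432 coding bases in 2 coding exons, and its ratio with CdSe/ZnS was -0.02 once the trend with length was removed.

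The amphiphysins RVS161 and RVS167, which act together at scission, were among the abundant members. RVS161 fell to 197 FPKM with CdSe/ZnS, against 268 untreated, at -0.45 (SE 0.22), and to 233 FPKM with InP/ZnS, against 306 untreated, at -0.39 (SE 0.23). RVS167 fell to 248 FPKM with CdSe/ZnS, against 326 untreated, at -0.40 (SE 0.22), and was not called with InP/ZnS, at 342 FPKM against 354 untreated, or -0.05 (SE 0.23). Neither passed once the median gene was taken as the baseline, and RVS161 turned to 0.04 with CdSe/ZnS when the trend with length was removed.

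The kinases that trigger disassembly of the patch, ARK1 and PRK1, were not called with CdSe/ZnS, at -0.29 (SE 0.23) and -0.23 (SE 0.25), and lay above the median of all genes there. With InP/ZnS ARK1 fell to 53.8 FPKM, against 73.5 untreated, at -0.45 (SE 0.23), while PRK1 stood at 27.9 against 25.6, at 0.12 (SE 0.23). SCD5, which brings protein phosphatase 1 to the coat, fell to 33.2 FPKM with CdSe/ZnS, against 57.4 untreated, at -0.79 (SE 0.23), and stood at 0.26 (SE 0.23) with InP/ZnS, not called. INP52 was not called in either table, at -0.03 (SE 0.25) with CdSe/ZnS and -0.26 (SE 0.25) with InP/ZnS. LSB3, an SH3 protein that binds Las17, fell to 55.7 FPKM with CdSe/ZnS, against 138 untreated, at -1.31 (SE 0.21). It stood at 144 FPKM with InP/ZnS, against 169 untreated, at -0.23 (SE 0.23), and was not called. SCD5 overlaps YOR329W-A and INP52 overlaps RRT16.

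The early coat was set against the genes of actin assembly and scission. With CdSe/ZnS 16 of 17 Arp2/3, actin-binding and scission members fell and 0 rose, and of the 8 early coat genes 4 fell and 1 rose. These are 94.1% and 50% lower, beside 43.6% of all tested genes. Relative to the median of all genes 8 of the 17 and 4 of the 8 were lower by the normal test, beside 13.6%. With the trend with length removed 5 of the 17 and 3 of the 8 were lower, beside 12.2% of all genes. The medians were -0.68 for the early coat and -0.70 for the actin side. The early coat values lay in 4 from -1.50 to -1.04 and 4 from -0.32 to 0.70, so its median falls in the gap between them. Without the 2 early coat genes that share a locus, ENT1 and YAP1802, the early coat's median was -0.23 over 6 genes, and that of the actin side without CRN1 was -0.81 over 16. With InP/ZnS 5 of 17 fell and 0 rose on the actin side, with a median of -0.05, and the early coat, with 1 lower and 2 higher, had a median of 0.14. Over all tested genes 17.2% were lower and 23.9% higher there. Relative to the median of all genes 0 of the 17 and 1 of the 8 were lower with InP/ZnS, beside 8.32%. In that test 0 of the 17 and 1 of the 8 were higher, beside 7.87%. With the trend with length removed 0 and 1 were lower there, beside 9.13% of all genes, and 0 and 0 higher, beside 8.59%. The difference between these groups was not tested.

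**Figure D3:**
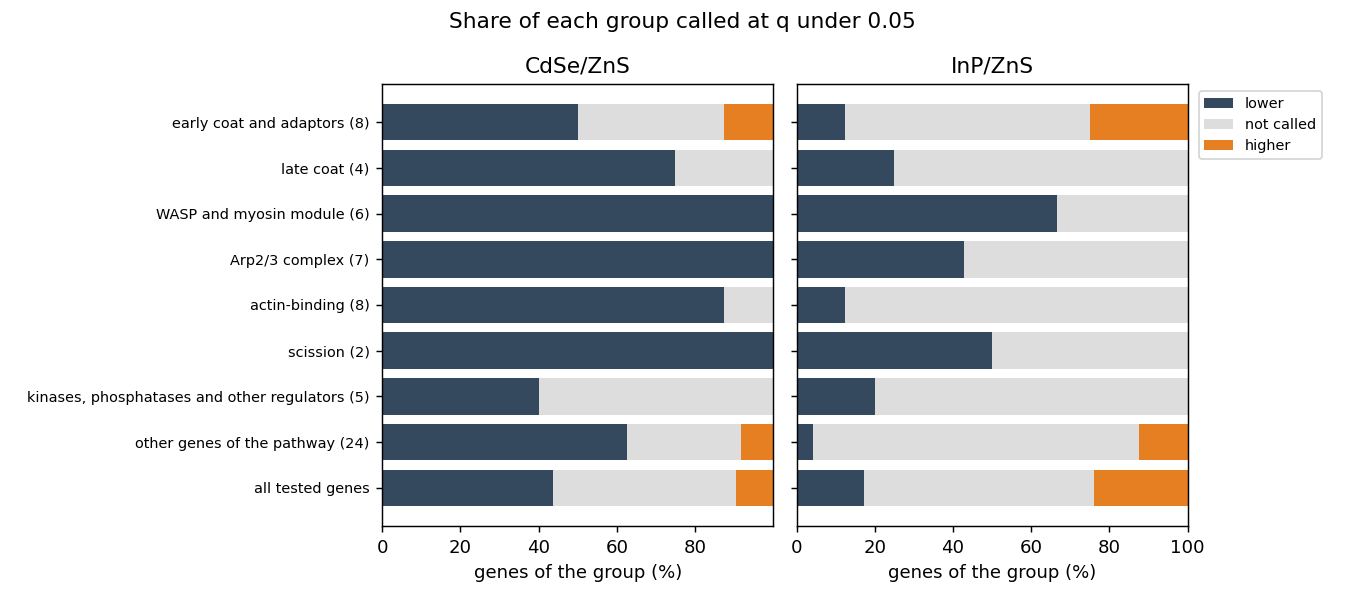
Share of each role group called lower, not called or called higher at q under 0.05, in percent of its tested genes (their number in brackets), with CdSe/ZnS (left) and InP/ZnS (right), beside 24 other genes of the pathway and all tested genes. The bars for lower genes reach 100% in the WASP and myosin module, the Arp2/3 complex and the scission pair on the left, and are longest for the WASP and myosin module, at 66.7%, on the right.

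Gene length went with the response. Across the 40 members the Spearman correlation between coding length and log2 ratio came to 0.51 (CdSe/ZnS) and 0.22 (InP/ZnS). Across all genes with a length it was 0.34 over 5698 and 0.11 over 5739. Level went with the response too. The Spearman correlation between untreated FPKM and log2 ratio was -0.46 (CdSe/ZnS) and -0.16 (InP/ZnS) across the members. Across the same sets of all genes it was -0.31 and -0.23. The untreated value is part of the ratio itself, and no step removed a trend with level. The points share their libraries and FPKM divides by length, so these are descriptions with no test. Within length classes, chosen after the values were seen, the members of up to 1000 bases fell in 9 of 9 cases with CdSe/ZnS, with a median of -1.05, beside -0.61 and 59% lower over all genes of that class. Above 1000 and up to 2000 bases 15 of 18 members fell, with a median of -0.57, beside -0.31 and 46% over all genes. Above 2000 bases 7 of 13 fell and 1 rose, with a median of -0.36, beside -0.08 and 28.3% lower over all genes.

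With InP/ZnS the shortest members fell in 5 of 9 cases, with a median of -0.35, beside -0.01 and 22.2% lower over all genes of that class. The members above 1000 and up to 2000 bases had 3 lower and 1 higher of 18, where 17.8% of all genes of that class were lower and 29.6% higher, with a median of 0.08 beside 0.10. The longest had 4 lower and 1 higher of 13, where 14.1% of all genes were lower and 30.1% higher, with a median of 0.12 beside 0.13. With the trend removed, 15 members were lower and 0 higher with CdSe/ZnS, where 12.2% of all genes were lower and 10.4% higher, and the members' median was -0.47. In InP/ZnS cells 4 were lower and 0 higher, where 9.13% were lower and 8.59% higher. Those 4 were ENT1, LAS17, VRP1 and MYO3. What in the cells or the libraries goes with gene length was not tested.

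**Figure D4:**
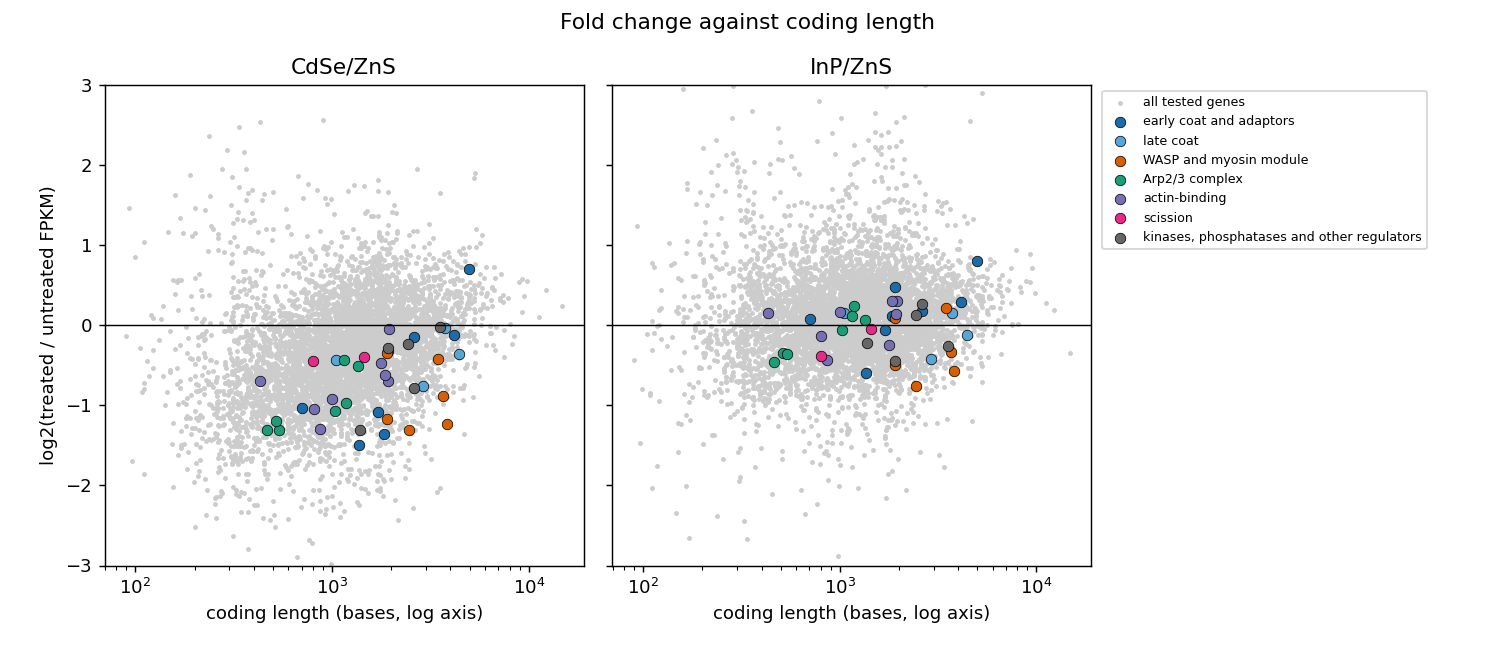
Log2 ratio of treated over untreated FPKM against coding length in bases (log axis), with CdSe/ZnS (left) and InP/ZnS (right); grey points are all tested genes with a length, of which 18 and 14 lie beyond the axis limits of -3 and 3, and coloured points are the members by role. In the left panel the short Arp2/3 subunits lie near -1.3 with many short genes, while the WASP and myosin members VRP1 and MYO3 lie at -1.31 and -1.23 among long genes.

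Fewer of the InP/ZnS calls than of the CdSe/ZnS calls also passed a second test. By a normal test on the authors' own score, adjusted over all genes, 2 members were lower with InP/ZnS, ENT1 and VRP1, and 1 higher, CHC1, where 6.55% and 9.3% of all tested genes passed. The same test gave 22 lower and 1 higher with CdSe/ZnS, where 29.6% and 4.43% passed. No member reached a log2 ratio of 1 in either direction with InP/ZnS, while 14 called members were at -1 or below with CdSe/ZnS. The share of all tested genes past that limit was not computed. The lower quartile of all tested genes with CdSe/ZnS was -0.77.

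The promoters of the clathrin chains, of the epsin and WASP-interacting genes that fell with both quantum dots and of the small Arp2/3 subunit are printed to compare genes that moved apart and together. Each window runs from 250 bases before the start codon through the first 50 bases of the gene, in assembly R64 of RefSeq, on the strand of the gene. Of the 33 members alone at their locus, 33 had the same start and end in the authors' table and in R64. Capitals mark matches on either strand to 3 motifs. The letters AGGGG are the core that the stress factors Msn2 and Msn4 bind. The letters GAANNTTC are inverted units of the heat shock element. The letters TATAAA are a form of the TATA box.
CHC1 (chrVII:107455-107754, minus strand): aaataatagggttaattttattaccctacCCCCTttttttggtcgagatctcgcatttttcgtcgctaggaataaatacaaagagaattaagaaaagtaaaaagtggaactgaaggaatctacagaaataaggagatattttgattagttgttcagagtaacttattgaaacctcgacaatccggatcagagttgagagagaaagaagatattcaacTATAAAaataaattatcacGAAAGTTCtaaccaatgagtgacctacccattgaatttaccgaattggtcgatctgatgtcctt
CLC1 (chrVII:832206-832505, plus strand): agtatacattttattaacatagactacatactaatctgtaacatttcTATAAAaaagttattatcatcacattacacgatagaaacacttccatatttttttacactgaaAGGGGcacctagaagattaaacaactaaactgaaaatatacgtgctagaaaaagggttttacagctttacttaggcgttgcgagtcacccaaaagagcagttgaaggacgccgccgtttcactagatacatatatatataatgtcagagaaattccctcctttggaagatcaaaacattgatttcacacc
ENT1 (chrIV:167464-167763, plus strand): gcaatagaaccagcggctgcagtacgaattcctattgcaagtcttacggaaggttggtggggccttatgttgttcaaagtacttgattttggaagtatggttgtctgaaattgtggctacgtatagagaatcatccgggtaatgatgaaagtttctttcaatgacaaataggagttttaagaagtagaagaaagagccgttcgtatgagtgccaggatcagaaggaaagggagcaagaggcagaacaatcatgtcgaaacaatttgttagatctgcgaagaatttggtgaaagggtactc
VRP1 (chrXII:805057-805356, minus strand): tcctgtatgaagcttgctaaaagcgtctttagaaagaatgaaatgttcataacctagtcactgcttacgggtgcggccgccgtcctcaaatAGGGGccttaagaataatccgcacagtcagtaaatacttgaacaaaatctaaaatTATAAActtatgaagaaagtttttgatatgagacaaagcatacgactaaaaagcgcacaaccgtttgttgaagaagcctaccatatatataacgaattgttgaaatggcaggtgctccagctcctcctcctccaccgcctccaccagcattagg
ARC15 (chrIX:244413-244712, minus strand): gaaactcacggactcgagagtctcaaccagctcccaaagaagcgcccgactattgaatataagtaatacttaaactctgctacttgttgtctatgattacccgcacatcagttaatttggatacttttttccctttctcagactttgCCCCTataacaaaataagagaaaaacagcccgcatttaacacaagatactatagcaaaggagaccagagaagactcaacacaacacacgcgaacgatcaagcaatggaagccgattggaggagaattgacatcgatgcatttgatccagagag
CHC1 has an AGGGG match on the other strand, at -221 from the start codon, a TATAAA at -33 and a GAANNTTC at -14. CLC1 has AGGGG at -140 and TATAAA at -203, and VRP1 has them at -159 and -104. ARC15 has an AGGGG match at -103, and its window overlaps the gene SNP1 in R64. The locus that ENT1 shares with YDL162C and the one that VRP1 shares with OPI9 also reach into their windows. As ENT1 and VRP1 share a locus, they are not among the 33 members compared with R64 above. None of the 3 motifs is in the window of ENT1.

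The letters AGGGG stood in 23 of 40 member promoters (57.5%), and in 22% of the 5693 promoters of tested protein-coding genes. They were in 6 of 8 early coat, 3 of 4 late coat, 4 of 6 WASP and myosin and 5 of 7 Arp2/3 promoters. Among the others, 3 of 8 actin-binding, 1 of 2 scission and 1 of 5 regulator promoters held them. Of 24 other pathway genes 8 had them (33.3%). Strings of the same letters in another order were set beside it. GAGGG was in 15% of member promoters and 23.3% of all. The string GGAGG was in 22.5% of member promoters and 23.8% of all. The string GGGAG was in 17.5% of member promoters and 20.6% of all. The last, GGGGA, which can overlap the stress core, was in 12.5% of member promoters and 21.1% of all. TATAAA was in 45% of member promoters and 44.6% of all, and GAANNTTC in 10% and 11.9%.

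Members with AGGGG had a median log2 ratio of -0.79 with CdSe/ZnS, with 19 of 23 lower, and those without it -0.48, with 12 of 17 lower. Over all genes the medians were -0.36 with it, with 46.9% lower, and -0.35 without it, with 47.3% lower. With InP/ZnS the members' medians were 0.06 with it and -0.05 without it, while over all genes they were 0.19 with it and 0.03 without it. Of the members 7 of 23 with it and 5 of 17 without it fell with InP/ZnS, and of all genes 16% with it and 19.7% without it. Of all genes with AGGGG 36.6% rose with InP/ZnS and of those without it 23.2%, and of the members 1 of 23 with it and 1 of 17 without it rose. A match of letters shows no binding, and these shares were not tested.

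Other genes of the pathway were taken from a list, and 24 of its 25 genes had a row; the other was not analysed here. With CdSe/ZnS 15 of 24 fell (62.5%) and 2 rose (8.33%), beside 43.6% and 9.59% of all tested genes. Their median was -0.50, beside -0.35 over all tested genes. With InP/ZnS 1 fell (4.17%) and 3 rose (12.5%), beside 17.2% and 23.9%, and their median of 0.07 equalled that of all tested genes. Relative to the median of all genes 2 were lower and 2 higher with CdSe/ZnS by the normal test. Of all tested genes 13.6% were lower and 11.9% higher in that test. ACT1, actin itself, was not called with CdSe/ZnS, at 632 FPKM against 599 untreated, or 0.08 (SE 0.24), and rose to 985 FPKM with InP/ZnS, against 723 untreated, at 0.45 (SE 0.26). The lowest ratio with CdSe/ZnS was that of LSB1, a binding partner of Las17, at 145 FPKM against 506 untreated, or -1.80 (SE 0.25), and it was also lowest with InP/ZnS, at -0.47 (SE 0.25). LSB1 overlaps YGR137W. RSP5, the ubiquitin ligase that marks cargo, was highest with CdSe/ZnS, at 75.1 FPKM against 43.9 untreated, or 0.77 (SE 0.22). LDB17, a regulator of actin assembly at the coat, was highest with InP/ZnS, at 44.3 FPKM against 22.1 untreated, or 0.999 (SE 0.24).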

How the data were processed

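The sequenced material was messenger RNA of 3 CdSe/ZnS, 3 InP/ZnS and 3 untreated libraries, made with a stranded kit, per the labels. Whether reads were counted by strand is not given in the sources used here, so a gene that overlaps another entry is uncertain. According to text sheets the authors deposited, reads were trimmed at a quality of 20 and by 12 bases at their 5′ end, those under 80 bases were dropped, and TopHat and Cufflinks used the S288C genome of SGD; Cuffdiff is named in the submitters' processing notes. The authors deposited FPKM, a log2 fold change, a test score, a p-value and a q-value per gene, in Cuffdiff's layout per the file headers, with 1 FPKM per condition. Cuffdiff's smallest p, 5e-05, was shared by 1834 and 1266 genes, 22 and 4 of them members, so it is a limit of the method.

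Log2 ratios were recomputed from the FPKM with pandas 2.3.3 and differed from the deposited ones by at most 4.18e-05. Which column holds treated cells was read from the authors' lists of higher and lower genes, whose 606 and 2759 (CdSe/ZnS) and 1522 and 1096 (InP/ZnS) genes were the ones called at q under 0.05. The implied SE is the log2 fold change over the score. Normal tests on it (SciPy 1.17.1) were 2-sided and adjusted by Benjamini-Hochberg over all tested genes. They were run on simulated data whose noise was drawn from the same SE, which cannot show whether that SE fits these libraries. The length trend was the interpolated median of 20 length bins. Coding lengths and sequences are from RefSeq R64, in which 99.8% of entries alone at their locus had the same start and end. Paralogs were aligned with Biopython 1.88. Named were every member, and ACT1 with the lowest and highest of the other pathway genes. The members and lists were chosen with earlier results of these data known.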

Additional observations from a re-analysis of the deposited data

How the results depend on the processing

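No value per library was used, so no library could be left out. No paired analysis was possible because the columns carry no replicate numbers. Of 58 alternative values, 37 kept their direction and stayed within 1.5 times (counts) or 1 median implied SE (medians). Where a called gene also had to reach a log2 ratio of 1 in size, the members lower and higher were 14 and 0 with CdSe/ZnS and 0 and 0 with InP/ZnS. The share of all tested genes past that limit was not computed. Relative to the median of all genes they were 16 lower with CdSe/ZnS, and 4 lower and 1 higher with InP/ZnS. With the length trend removed they were 15 and 0 with CdSe/ZnS, and 4 and 0 with InP/ZnS. The normal test on the score alone gave 2 lower and 1 higher with InP/ZnS. Medians with CdSe/ZnS, relative to all genes, moved to -0.35 for the members, -0.33 for the early coat and -0.35 for the Arp2/3, actin-binding and scission genes. With the length trend removed the early coat was at -0.36 and the actin side at -0.46, and without shared loci the early coat was at -0.23. The members' median with InP/ZnS turned to -0.060 relative to all genes and to -0.078 with the length trend removed, beside 0.0065. The cause was not tested, beyond that centring shifts every gene alike. A stricter q of 0.01, a floor of 10 FPKM and a pseudocount of 1 moved no result past these limits. The depth is unknown.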

Other observations

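The 4 subunits of AP-2, the plasma membrane clathrin adaptor, were named after their values were seen. All 4 fell with CdSe/ZnS, where 43.6% of all tested genes fell. None was called with InP/ZnS, where 17.2% of all tested genes fell and 23.9% rose. APS2, the small subunit, fell to 102 FPKM with CdSe/ZnS, against 184 untreated, at -0.86 (SE 0.22), and stood at 247 with InP/ZnS, against 227 untreated, at 0.12 (SE 0.24). The large subunits APL1 and APL3 fell with CdSe/ZnS at -0.51 (SE 0.24) and -0.38 (SE 0.25), and the medium subunit APM4 at -0.42 (SE 0.22). Relative to the median of all genes none of the 4 passed the normal test, and APS2 was at -0.19 with the trend with length removed.

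PFY1, profilin, which feeds actin monomers to growing filaments, was the most abundant of the other pathway genes and was also named after its value was seen. It fell to 882 FPKM with CdSe/ZnS, against 1409 untreated, at -0.68 (SE 0.22), and stood at 1740 with InP/ZnS, against 1624 untreated, at 0.10 (SE 0.24). With its coding length of 381 bases taken into account, its ratio with CdSe/ZnS was 0.03.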
